A study of Mus musculus with 7 samples.

Results

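The genes described here encode the machinery that releases transmitter from synaptic vesicles. The set has 35 members, listed by symbol, of which 34 had a row in all 7 count tables, out of 23413 gene symbols in the tables. Pclo is not analysed here. Cortices of 7 mouse embryos of 1 litter were profiled at E18.5 by Seq-Well, a single-cell method that seals each cell with a barcoded bead in its own well and counts transcripts by unique molecular identifiers (UMIs), with 1 library per embryo. The 4 mutant embryos (replicates 10, 11, 12 and 17) were Emx1CreERT2;Ash1lfl/fl, and the 3 controls (replicates 14, 15 and 16) were Ash1lfl/fl without the Cre. All 7 were exposed to tamoxifen, given to the dam at 100 mg/kg at E10.5, and all carried the floxed Ash1l alleles. Ash1l encodes a histone lysine methyltransferase. Emx1 is expressed in dorsal telencephalic progenitors, whose descendants are the glutamatergic neurons of the cortex, whereas most cortical GABAergic neurons arise in the ventral telencephalon. The labels give neither the sex of the embryos nor a library batch.

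A synaptic vesicle docks at the active zone of the presynaptic membrane, is primed by factors that assemble the SNARE proteins of vesicle and membrane, and fuses when a calcium sensor binds calcium. NSF and its adaptors then take the SNARE complexes apart, and the membrane is recovered by endocytosis. Many of these genes are switched on as a neuron leaves the cell cycle, before it makes synapses, so that in a late embryonic cortex their transcripts are found in migrating neurons as well as in neurons that have settled in a layer.

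Start regions of 4 members are shown first, Syt1, Unc13a and Slc17a6 because the genotype comparison turns on them and Syn1 because it shares a motif with Unc13a, from RefSeq promoter windows on GRCm38.p6 (250 bases before and 50 after a start). A window was found for 28 members, 35 windows in all. The capitals mark the letters searched for on both strands. These were the left half-site TTCAGCACC and the right half-site GGACAGC of RE1, the element bound by the repressor REST, the GC box GGGCGG, the cyclic AMP response element TGACGTCA, the E-box CAGATG and the EGR site GCGGGGGCG. The EGR site and the GC box can share bases. Syt1 (chr10:109010976-109011075, minus strand) and Slc17a6 (chr7:51621730-51621829, plus strand) are shown over the 100 bases before the start, and Syn1 (chrX:20921069-20921168, minus strand) over the 100 bases that open its window. For Unc13a (chr8:71671727-71671750, minus strand) the 24 bases that hold both RE1 half-sites are shown, from base 8 to base 31 of the transcribed strand, with 8 bases between the half-sites.
Syt1: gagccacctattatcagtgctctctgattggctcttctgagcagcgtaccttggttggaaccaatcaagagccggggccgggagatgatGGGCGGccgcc
Slc17a6: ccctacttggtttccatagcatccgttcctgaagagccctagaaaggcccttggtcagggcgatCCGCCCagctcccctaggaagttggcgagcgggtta
Syn1: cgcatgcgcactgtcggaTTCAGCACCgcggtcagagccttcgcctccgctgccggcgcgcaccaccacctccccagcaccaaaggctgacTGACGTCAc
Unc13a: GCTGTCCgcgcccccGGTGCTGAA

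The left RE1 half-site was found in the windows of 2 members, Syn1 and Unc13a, and in 0.371% of all 32851 windows. The right half-site was found in 1 member window, that of Unc13a, and in 6.56% of all windows. The GC box was in the windows of 22 members, Syt1, Slc17a6 and Unc13a among them, and in 35.7% of all windows. The cyclic AMP response element was in that of Syn1 (1.79% of all windows), the E-box in those of Slc17a6, Syn2 and Pclo (17.2%), and the EGR site in those of Cplx1, Syn2 and Syngr1 (2.91%).

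The libraries held 7083225 to 11859209 UMIs. Of 50191 barcodes, 23005 had at least 500 detected genes and at most 10% mitochondrial UMIs and were kept, and 24 of the kept barcode sequences occurred in more than 1 library. Cells were assigned to a gate, the cell class whose marker genes stood out most in the cell, and UMIs were summed per embryo and gate. No member is a gate marker. The gates held 4527 migrating excitatory, 5848 upper-layer, 3335 deep-layer and 2146 GABAergic neurons and 2569 radial glia. Of 16 markers left out of the gates, 14 were highest in the gate they stand for. The exceptions were Rorb, an upper-layer marker that was highest in the deep-layer gate, and Foxp2, a deep-layer marker that was highest in the GABAergic gate. The share of cells whose score was close to that of another list was 25.2% in the deep-layer and 23.7% in the migrating gate. It was 15.0% in the radial glia, 14.7% in the upper-layer and 10.0% in the GABAergic gate. In sums over cells, fewer cells that express a gene and less RNA of it per cell cannot be told apart.

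Between radial glia and migrating neurons, most of the release machinery was already higher in the neurons. Of 33 members tested, 27 were higher in the migrating gate and 2 were lower (edgeR quasi-likelihood test with the embryo as block, Benjamini-Hochberg adjusted p under 0.05), while 60.4% of all 10999 genes tested passed in either direction, 30.8% as higher and 29.6% as lower. The median log2 difference was 1.27 over the members and 0.02 over all genes. The vesicular glutamate transporter Slc17a7 had the largest difference (2.66, SE 0.47, adjusted p = 6.5e-07), on 6 UMIs in radial glia and 63 in migrating neurons. Ppfia2, the active zone scaffold liprin-alpha, differed by 1.77 (SE 0.10), Syn2, a synapsin that tethers vesicles, by 1.72 (SE 0.19), and Bsn, the scaffold bassoon, by 1.65 (SE 0.18). Syt1, the calcium sensor of fast release, differed by 1.36 (SE 0.14, adjusted p = 2.9e-12) and was higher in migrating neurons in 7 of 7 embryos. The 2 members that were lower in migrating neurons were Syt11, a synaptotagmin that does not bind calcium (−0.90, SE 0.07), and Snapin, a partner of Snap25 that also serves lysosome transport (−0.76, SE 0.15). Nsf, Cask, Doc2b and Sv2b did not pass in this comparison.

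**Figure D1:**
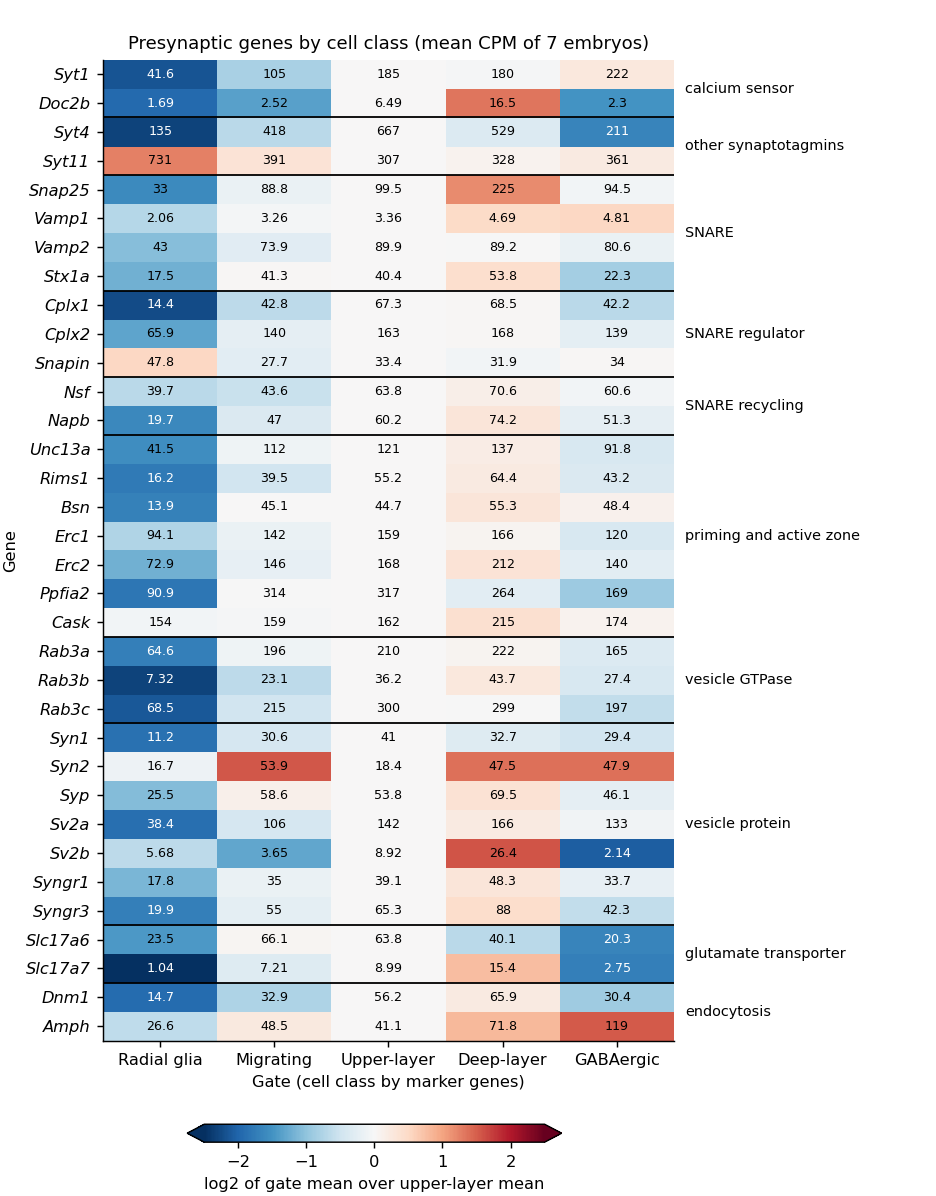
Mean level of 34 members (rows, grouped by role) in 5 gates (columns), in CPM over 7 embryos. The number in each cell is the mean CPM, and the colour is the log2 ratio of that mean to the upper-layer mean of the same gene, so that colours compare gates within a gene only. Deep-layer neurons hold the highest mean for 22 members, and Syt11 and Snapin are highest in radial glia. Some of those deep-layer means are close to the upper-layer mean, as for Cplx1 (101.8% of it) and Erc1 (104.3%). The share of all genes highest in the deep-layer gate is not given here.

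From migrating to upper-layer neurons the components separated. Of 33 members tested, 17 were higher in upper-layer neurons and 2 were lower, where 24.7% of all genes passed in either direction, 13.4% as higher and 11.3% as lower (same test). The median log2 difference was 0.24 over the members and 0.00 over all genes. Both calcium sensors of the set were among the 3 largest differences. Syt1 had 81.0 CPM (counts of UMIs scaled to a common library size) in the lowest embryo, 99.8 in the median and 159 in the highest in migrating neurons, and 121, 169 and 241 CPM in the same order in upper-layer neurons. The ranges of Syt1 overlapped across embryos, but within each of the 7 embryos the upper-layer value was higher (log2 difference 0.82, SE 0.10, 95% interval 0.63 to 1.02, adjusted p = 7.4e-10). Doc2b, a high-affinity calcium sensor of spontaneous release, ranged from 0.865 to 4.55 CPM in migrating neurons and from 2.44 to 8.69 CPM in upper-layer neurons, on 22 and 74 UMIs in all. Its difference was 1.37 (SE 0.37, adjusted p = 0.0027, higher in 7 of 7 embryos). Sv2b, a vesicle glycoprotein, had 0.865, 3.72 and 6.22 CPM (lowest, median and highest) in migrating neurons and 3.55, 10.4 and 15.3 in upper-layer neurons, on 32 and 106 UMIs. The difference of Sv2b was 1.26 (SE 0.37, adjusted p = 0.0076), with 6 of 7 embryos higher and mutant 12, at 3.55 against 6.22 CPM, lower. In the mutant embryos alone 10 members passed, without Doc2b (adjusted p = 0.0563) and Sv2b (0.237). All genes called, 2715 over all 7 embryos, ranged from 1254 to 2688 over the 18 alternative settings.

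Syn2 stood at the other end. Its level was 43.9, 48.3 and 69.8 CPM in migrating neurons and 11.2, 18.6 and 24.4 CPM in upper-layer neurons, and the 2 ranges did not overlap. Its log2 difference was −1.59 (SE 0.16, adjusted p = 2.5e-12), with the upper-layer value lower in 7 of 7 embryos. Syn1, the other synapsin of the set, was higher in upper-layer neurons by 0.41 (SE 0.12, edgeR adjusted p = 0.0070, 7 of 7 embryos). Syt11 ranged from 318 to 521 CPM in migrating and from 262 to 379 CPM in upper-layer neurons and was lower by 0.35 (SE 0.07, adjusted p = 4.8e-05, 7 of 7 embryos). Amph, which encodes the endocytic adaptor amphiphysin, ranged from 33.7 to 66.2 CPM in migrating neurons and from 28.4 to 50.2 CPM in upper-layer neurons, a difference that did not pass (−0.23, SE 0.13, adjusted p = 0.21).

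The roles can be followed in turn. Among SNARE genes only Vamp2, the SNARE of the vesicle, was called higher in upper-layer than in migrating neurons (0.28, SE 0.10), while the membrane SNAREs Snap25 (0.15, 95% interval −0.02 to 0.32) and Stx1a (0.01, −0.22 to 0.24) did not pass. Vamp1 was too low to be tested. The complexins, which clamp and promote fusion, were both higher, Cplx1 by 0.64 (SE 0.12) and Cplx2 by 0.22 (SE 0.08). Nsf and Napb, which disassemble SNARE complexes, were higher by 0.56 (SE 0.12) and 0.37 (SE 0.11). Of the 7 priming and active zone genes, the scaffolds Rims1 (0.48, SE 0.12) and Erc2 (0.20, SE 0.07) passed. The priming factor Unc13a (0.12, 95% interval −0.07 to 0.30) and Bsn (0.00, −0.24 to 0.25) were among the 5 that did not. The vesicle GTPases Rab3b (0.64, SE 0.14) and Rab3c (0.48, SE 0.08) passed, and Rab3a (0.11, SE 0.08) did not. Dnm1, the GTPase that pinches off endocytic vesicles, was higher by 0.77 (SE 0.12), and Syt4, a synaptotagmin of dense-core vesicles, by 0.68 (SE 0.08). As a share of the upper-layer mean, the migrating mean was 38.8% for Doc2b, 40.9% for Sv2b, 56.8% for Syt1, 58.6% for Dnm1, 62.6% for Syt4 and 63.5% for Cplx1, but 89.3% for Snap25, 92.5% for Unc13a, 102% for Stx1a, 109% for Syp, the vesicle protein synaptophysin, and 293% for Syn2.

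**Figure D2:**
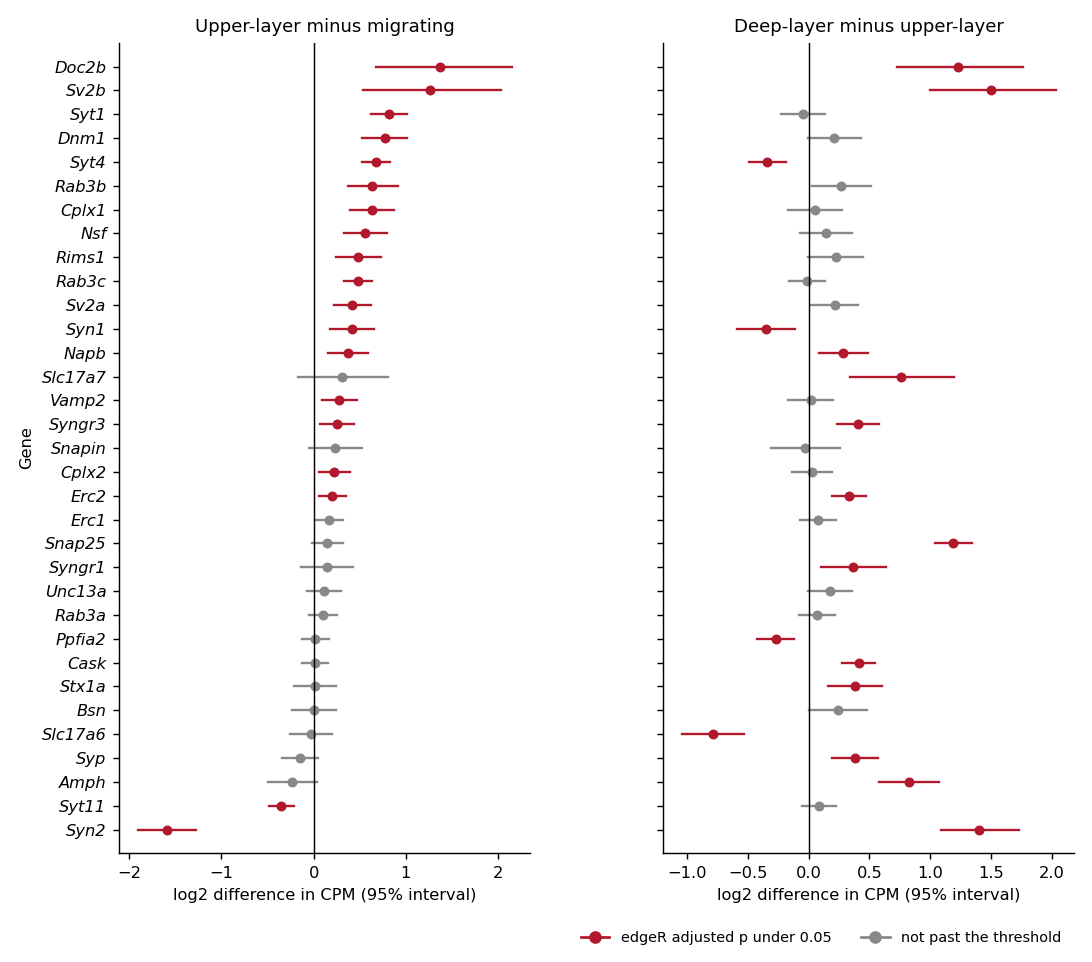
Log2 difference in CPM of each of the 33 members tested, with its 95% interval, between upper-layer and migrating neurons (left) and between deep-layer and upper-layer neurons (right), over 7 embryos with the embryo as block. Genes are ordered by the left panel, and red marks an edgeR adjusted p under 0.05. Syt1 is near the top on the left at 0.82 and at −0.05 on the right, and Snap25 is at 0.15 on the left and 1.19 on the right.

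Deep-layer neurons, which are born before upper-layer neurons, were higher than migrating neurons for 24 of 33 members and lower for 3, where 32.1% of all genes passed, 15.6% as higher and 16.5% as lower. The median was 0.47 over the members and −0.03 over all genes. This comparison uses the same migrating sums as the one above, so that the 2 are not independent. Syt1 was 0.77 higher (SE 0.10) in deep-layer neurons, beside 0.82 in upper-layer neurons. Snap25 was 1.34 higher (SE 0.08), beside 0.15, Sv2b 2.76 (SE 0.33), beside 1.26, and Doc2b 2.60 (SE 0.33), beside 1.37. The 3 members lower in deep-layer than in migrating neurons were Slc17a6, the other vesicular glutamate transporter of the set (−0.81, SE 0.13), Syt11 (−0.26, SE 0.07) and Ppfia2 (−0.25, SE 0.08). All genes called here, 3531, ranged from 1877 to 3578 over the 18 alternative settings. In the mutant embryos alone 17 members passed. Syt11 did not pass there (adjusted p = 0.255) or without the embryo as block (0.0988), nor did Amph (0.59, SE 0.13 over all embryos) in the mutants (0.0673).

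Set directly against upper-layer neurons, deep-layer neurons were higher for 13 members and lower for 4, where 20.2% of all genes passed, 9.65% as higher, and 1158 of the 10999 genes were lower. Snap25 was 90.8, 102 and 105 CPM (lowest, median and highest) in upper-layer and 180, 234 and 255 CPM in deep-layer neurons, with no overlap (log2 difference 1.19, SE 0.08, adjusted p = 1.6e-19, 7 of 7 embryos). Sv2b (1.5, SE 0.26), Syn2 (1.40, SE 0.16), Doc2b (1.23, SE 0.26), Amph (0.82, SE 0.12) and Slc17a7 (0.76, SE 0.21) were also higher in 7 of 7 embryos. The 2 glutamate transporters of the set went opposite ways. Slc17a6 was lower by 0.78 (SE 0.13, adjusted p = 2.9e-06) in deep-layer neurons, with 21.4, 32.2 and 73.4 CPM there against 50.1, 63.3 and 77.4 CPM in upper-layer neurons, and was lower in 7 of 7 embryos. Syn1 (−0.35, SE 0.12), Syt4 (−0.34, SE 0.08) and Ppfia2 (−0.27, SE 0.07) were the other members lower. Syt1 did not differ beyond its spread (−0.05, 95% interval −0.23 to 0.13). In the 3 control embryos alone 11 members passed, in the 4 mutants alone 8, and without the embryo as block 9. All genes called, 2219 over all 7 embryos, ranged from 1011 to 2213 over the 18 alternative settings.

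GABAergic neurons were lower than upper-layer neurons for 19 of 33 members and higher for 3, where 33.6% of all genes passed, 16.1% as higher and 17.5% as lower. Both glutamate transporters of the set were lower, Slc17a7 by 1.79 (SE 0.39) and Slc17a6 by 1.69 (SE 0.18). Syt4 was lower by 1.69 (SE 0.09), Sv2b by 1.78 (SE 0.51) and Ppfia2 by 0.93 (SE 0.09). The members higher in GABAergic neurons were Amph (1.48, SE 0.13), Syn2 (1.40, SE 0.19) and Syt11 (0.25, SE 0.07). Syt1 had its highest mean of any gate there, 222 CPM ± 60.8 (SD, n = 7), but did not pass against upper-layer neurons (0.22, SE 0.10, adjusted p = 0.078). It did pass without mutant 12 (0.28, adjusted p = 0.0301) or control 16 (0.28, adjusted p = 0.0474), with at least 3 gate markers (0.32, adjusted p = 0.0051) and with at least 300 genes per cell (0.27, adjusted p = 0.0176). In the 3 controls alone 13 members passed, without Sv2b (adjusted p = 0.138). All genes called, 3701 over all 7 embryos, ranged from 2222 to 3781 over the 18 alternative settings. Syt11 did not pass without control 15 (0.16, adjusted p = 0.121), without the embryo as block (0.24, adjusted p = 0.0972) or in the mutants alone (0.10, adjusted p = 0.490).

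A gate that should lack these transcripts also held some. In the 319 vascular and microglial cells, summed over all embryos, Syt1 was at 84.4 CPM on 61 UMIs, Syt4 at 228 CPM on 165, Snap25 at 51.2 CPM on 37, Unc13a at 67.8 CPM on 49 and Slc17a6 at 33.2 CPM on 24. The mean of Syt1 in migrating neurons, 105 CPM ± 25.6, and in radial glia, 41.6 CPM ± 18.3 (SD, n = 7), can be read against that level, as can Slc17a6 in deep-layer neurons (40.1 CPM ± 18.2). Doc2b was at 4.15 CPM on 3 UMIs and Sv2b at 2.77 CPM on 2. Slc17a7 was at 6.92 CPM on 5 UMIs, beside a mean of 7.21 CPM in migrating neurons. What RNA from other cells adds to the gate levels was not tested.

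The class differences were also fitted in control and in mutant embryos separately, which share no sample. Over 32 members that passed the filter in both, the upper-layer minus migrating differences had the same sign in 27, with a Pearson correlation across genes of 0.876, and the deep-layer minus migrating differences in 32, with 0.947. Deep-layer minus upper-layer differences had the same sign in 25 (0.878), GABAergic minus upper-layer in 30 (0.868) and migrating minus radial glia in 30 (0.886). The Spearman correlations were 0.763, 0.891, 0.814, 0.914 and 0.827 in the same order. Signs and correlations over all genes are not given here. Genes are not independent replicates, and each genotype's differences share sums among themselves. Syt1 was 0.94 higher (SE 0.11) in upper-layer than in migrating neurons of controls and 0.70 (SE 0.14) in mutants. The deep-layer minus upper-layer difference of Slc17a6 was −1.11 (SE 0.18) in controls and −0.48 (SE 0.16) in mutants, and that of Syn2 was 1.76 (SE 0.20) and 1.06 (SE 0.21). Sv2b, a low gene, had the widest gap in upper-layer minus migrating, 1.90 (SE 0.55) against 0.88 (SE 0.47). These gaps were not themselves tested.

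**Figure D3:**
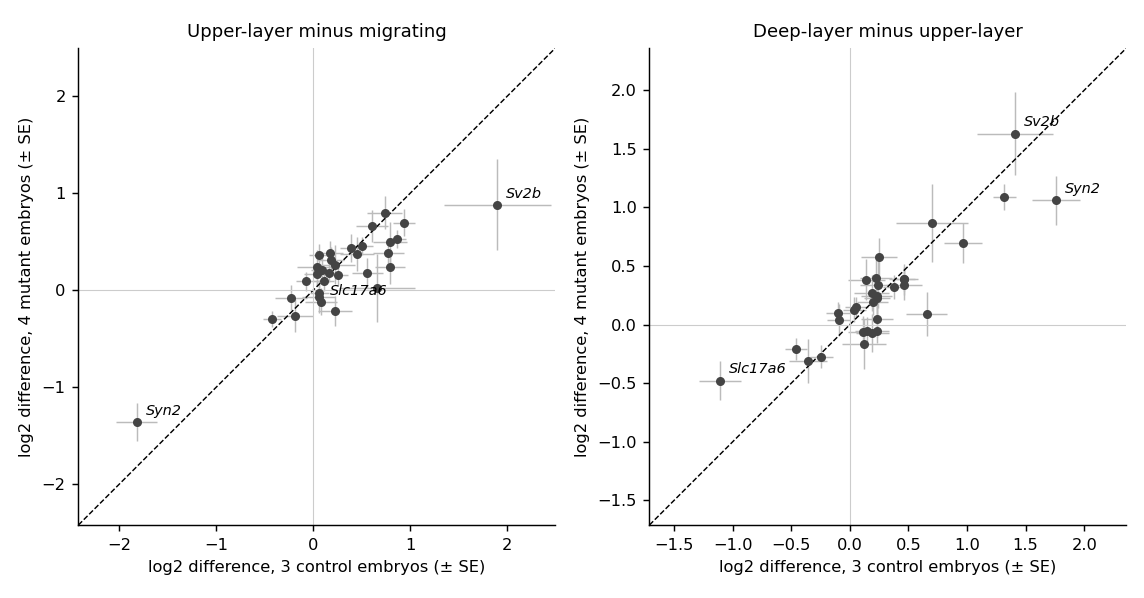
Log2 difference between gates of each of 32 members in the 3 control embryos (x axis) and in the 4 mutant embryos (y axis), each with its SE, for upper-layer minus migrating (left) and deep-layer minus upper-layer (right). The dashed line is equality. Syn2 lies lowest on the left (−1.82 and −1.36) and Slc17a6 lowest on the right (−1.11 and −0.48) in both genotypes.

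The genotype comparison asks whether loss of Ash1l in the Emx1 lineage altered these genes. The targeted gene itself, summed over all cells, had 166, 217 and 207 CPM of Ash1l in controls 14, 15 and 16 and 157, 154, 165 and 125 CPM in mutants 10, 11, 12 and 17. All 4 mutants were below all 3 controls, by a small margin for control 14. The log2 fold change of Ash1l was −0.39 (SE 0.12, edgeR adjusted p = 0.336) in all cells and −0.54 (SE 0.15, adjusted p = 0.361) in the deep-layer gate. In the deep-layer gate mutant 12, at 159 CPM, exceeded control 14, at 151 CPM. Where in the gene the counted tags lie is not stated in the labels, so that these levels check the genotype only in part.

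No member passed the adjusted threshold for genotype in any of the 5 groupings (edgeR, 34 members tested in all cells, 30 in migrating, 33 in upper-layer, 33 in deep-layer and 30 in GABAergic neurons). Of all genes, 0.0233% passed in all cells, 0.0515% in migrating, 0.0298% in upper-layer, 0.0199% in deep-layer and 0% in GABAergic neurons. At an unadjusted p under 0.05, 2 members lay above and 2 below control in all cells (5.03% and 5.44% of all genes), 1 and 2 in migrating (3.39% and 4.04%), 2 and 3 in upper-layer (5.04% and 4.77%), 3 and 3 in deep-layer (4.05% and 3.63%) and 0 and 2 in GABAergic neurons (3.03% and 3.39%). With DESeq2 the count of members was also 0 in each grouping. Without a filter on low counts Syt1 passed in all cells (adjusted p = 0.0026) and in the upper-layer gate (0.0068). Over the 15 alternative settings, all genes called ranged from 3 to 165 in all cells and from 2 to 100 in the upper-layer gate.

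Syt1 had the smallest unadjusted p of the members in all cells and in upper-layer neurons. In all cells it was at 156, 183 and 162 CPM in controls 14, 15 and 16 and at 117, 130, 85 and 131 CPM in mutants 10, 11, 12 and 17. Every mutant lay below every control, as did 5.27% of all genes, and the log2 fold change was −0.53 (SE 0.14, 95% interval −0.82 to −0.23, edgeR adjusted p = 0.322). In upper-layer neurons Syt1 was at 193, 230 and 226 CPM in controls and 157, 162, 118 and 157 CPM in mutants, again without overlap (4.66% of all genes), for −0.54 (SE 0.13, 95% interval −0.81 to −0.27, adjusted p = 0.133). In deep-layer neurons the values were 209, 214 and 200 CPM against 184, 179, 129 and 145 CPM, without overlap (4.09% of all genes), for −0.38 (SE 0.14, adjusted p = 0.488). In migrating neurons the groups overlapped, with 94.0, 159 and 105 CPM in controls and 80.9, 99.5, 88.6 and 107 CPM in mutants (−0.33, SE 0.17, adjusted p = 0.687, and −0.08 without control 15). In GABAergic neurons they overlapped as well, at 238, 289 and 237 CPM against 188, 296, 113 and 239 CPM (−0.34, SE 0.22, adjusted p = 0.840). Mutant 12 was the lowest of the 7 embryos in all cells and in the upper-layer, deep-layer and GABAergic gates. That library's deep-layer sum also held 1442 CPM of Ttr, a choroid plexus gene at 0 to 24.8 CPM in the other 6. Without mutant 12 Syt1 was −0.40 in all cells, −0.44 in upper-layer, −0.31 in deep-layer and −0.10 in GABAergic neurons, where the marker-based doublet filter gave −0.08.

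Unc13a and Slc17a6 were the other members with an unadjusted p under 0.05 in 3 groupings, both with positive fold changes and neither past the adjusted threshold. Unc13a in deep-layer neurons was at 129, 106 and 98.9 CPM in controls 14, 15 and 16 and at 188, 140, 165 and 132 CPM in mutants 10, 11, 12 and 17. The 4 mutants lay above the 3 controls, as for 3.86% of all genes there, and the log2 fold change was 0.49 (SE 0.15, edgeR adjusted p = 0.480). In upper-layer neurons Unc13a was at 109, 100 and 76.6 CPM against 141, 121, 155 and 113 CPM, without overlap (4.80% of all genes), for 0.47 (SE 0.15, adjusted p = 0.259). In all cells it was at 99.5, 87.8 and 75.2 CPM against 117, 99.9, 123 and 108 CPM, also without overlap (4.52% of all genes), though mutant 11 exceeded control 14 by less than 1 CPM (0.36, SE 0.12, adjusted p = 0.361). The fold change was 0.34 (SE 0.19) in migrating and 0.33 (SE 0.19) in GABAergic neurons, where the groups overlapped.

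Slc17a6 in deep-layer neurons, the gate where its control level was lowest among the excitatory gates, was at 21.3, 26.1 and 31.4 CPM in controls and at 41.5, 54.2, 73.7 and 32.0 CPM in mutants. The lowest mutant and the highest control were 32.0 and 31.4 CPM, so that the groups were only just apart (log2 fold change 0.86, SE 0.24, 95% interval 0.37 to 1.36, edgeR adjusted p = 0.361). Those sums rest on 31 to 60 UMIs per embryo. The fold change of Slc17a6 was 0.43 (SE 0.20) in migrating, 0.23 (SE 0.16) in upper-layer and 0.13 (SE 0.37) in GABAergic neurons and 0.33 (SE 0.14) in all cells, with overlap in each. Slc17a7, which replaces Slc17a6 in maturing cortical neurons, was −0.07 (SE 0.30) in deep-layer and −0.26 (SE 0.35) in upper-layer neurons.

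**Figure D4:**
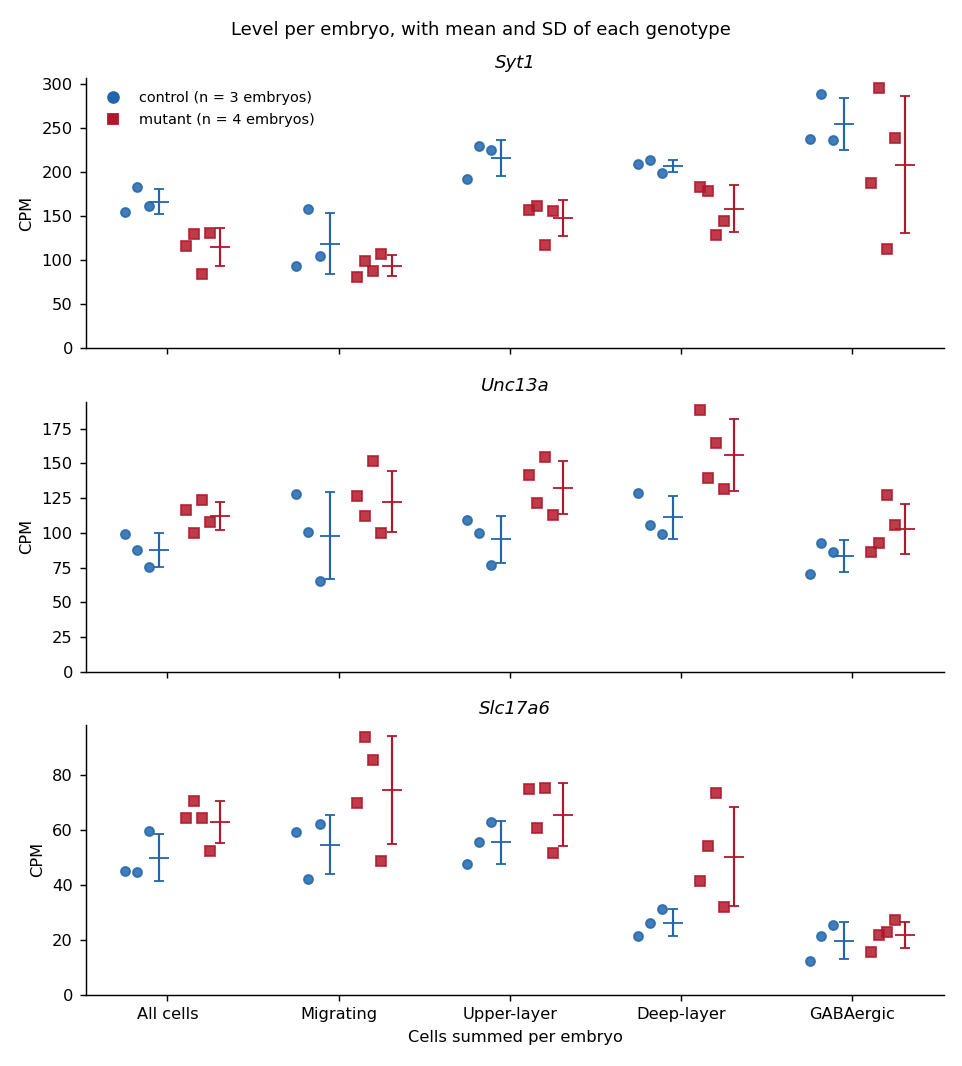
CPM of Syt1, Unc13a and Slc17a6 (rows) in each embryo, summed over all cells or over 1 gate (x axis), with the mean and SD of the 3 control (blue circles) and 4 mutant (red squares) embryos beside the points. The y axes start at 0. Syt1 is lower in all 4 mutants than in all 3 controls in all cells and in the upper-layer and deep-layer gates, and the groups overlap in the other 2 gates.

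The other members that reached an unadjusted p under 0.05 did so in 1 or 2 groupings. In upper-layer neurons the SNARE gene Stx1a was 33.8 CPM ± 5.95 in mutants and 45.4 CPM ± 6.82 in controls (SD, n = 4 and 3, log2 fold change −0.42, SE 0.18, edgeR adjusted p = 0.462). Napb in the same gate was −0.42 (SE 0.18, adjusted p = 0.439), and the vesicle protein Syp was 0.37 (SE 0.17, adjusted p = 0.477). In deep-layer neurons Doc2b was 0.91 (SE 0.33, adjusted p = 0.488), with a mean of 20.5 CPM ± 6.73 over mutants and 10.9 CPM ± 3.88 over controls (SD, n = 4 and 3), on 10 to 25 UMIs per embryo. Nsf was −0.42 (SE 0.19) and Erc1 −0.29 (SE 0.13) there, both with an edgeR adjusted p of 0.646. In migrating neurons Cplx2 was −0.30 (SE 0.13) and Vamp2 −0.44 (SE 0.21), and in GABAergic neurons Syn2 was −0.63 (SE 0.29) and Syt11 −0.35 (SE 0.16). Nsf in all cells was −0.28 (SE 0.12). Groups without overlap, all mutants below, were found for 3 members in all cells (Syt1, Napb and Rab3b), 2 in upper-layer (Syt1 and Stx1a), 2 in deep-layer (Syt1 and Erc1) and 1 in migrating neurons (Cplx2, 3.99% of all genes). With all mutants above there were 1, 1, 2 and 0 (3.59% of all genes in migrating neurons) in the same order, and GABAergic neurons had 0 members apart in either direction (3.63% of all genes below and 3.35% above).

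Over the whole set, 26 of 34 members had a negative log2 fold change in all cells, 20 of 30 in migrating, 21 of 33 in upper-layer, 22 of 33 in deep-layer and 22 of 30 in GABAergic neurons. The medians were −0.17, −0.04, −0.06, −0.09 and −0.14, and that of all genes tested was 0.00 in each grouping. Neuron genes outside the set also lay mostly below control in all cells. There, 9 of 9 early neuron genes (median −0.18), 9 of 9 later neuron genes (median −0.23) and 41 of 58 other presynaptic genes (median −0.11) had negative fold changes, and none passed (edgeR adjusted p under 0.05). By role, the 4 SNARE genes and the 3 SNARE regulators were all negative in all cells, from −0.17 for Cplx2 to −0.35 for Vamp2, and none of them passed. Most other roles went the same way there. Nsf, Napb, the 3 vesicle GTPases, Syt4 and Syt11 were negative, as were 6 of 7 priming and active zone genes. The calcium sensors, glutamate transporters and endocytic genes each had 1 positive and 1 negative member. Synaptic vesicle proteins were divided, with 4 of 7 positive in all cells and 5 of 7 in upper-layer neurons. The all-cell sums also hold different shares of the gates. Migrating neurons made up 21.7% ± 1.25 of the kept cells of a mutant and 17.4% ± 1.92 of those of a control (SD, n = 4 and 3). The exact permutation p was 0.0286, the smallest that 35 splits allow, and 0.143 after adjustment over 5 gates. Upper-layer neurons made up 23.3% ± 3.20 and 28.1% ± 1.31 (exact permutation p = 0.0857) and deep-layer neurons 12.8% ± 2.51 and 16.4% ± 0.613 (exact permutation p = 0.0857).

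**Figure D5:**
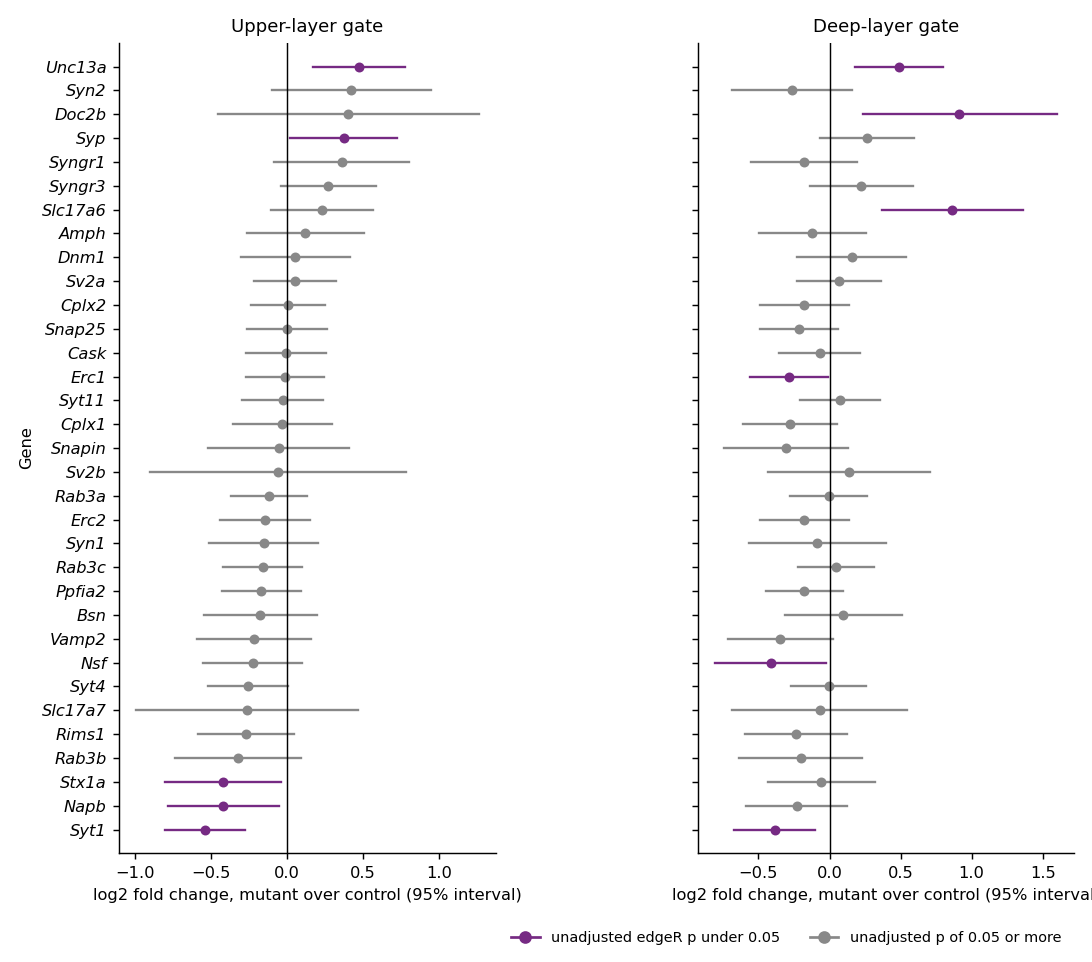
Log2 fold change of mutant over control for each member, with its 95% interval, in the upper-layer (left) and deep-layer (right) gates, from edgeR on 4 mutant and 3 control embryos. Genes are ordered by the left panel, and purple marks an unadjusted p under 0.05. Syt1 is lowest on the left at −0.54 and Unc13a highest at 0.47, and no member passed after adjustment.

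Levels of cell state and cell type genes outside the set are given beside these values. In upper-layer neurons the later neuron genes, 9 genes such as Nefm and Rbfox3, ranged in sum from 1258 to 1538 CPM over mutants and from 1546 to 1678 CPM over controls, and the 9 early neuron genes to 10569 to 11985 CPM against 12027 to 13291 CPM. None of either list's genes was at 0 and none passed after adjustment. The held-out upper-layer markers Gucy1a3 (−0.57, SE 0.13, edgeR adjusted p = 0.133), Inhba (−0.96, SE 0.22) and Rorb (−0.92, SE 0.20) and the held-out migrating markers Unc5d (0.42, SE 0.17) and Nrp1 (0.30, SE 0.12) had these log2 fold changes there, and none passed. In the deep-layer gate the held-out markers Lmo3 (−0.51, SE 0.13), Hs3st4 (−0.61, SE 0.16), Sox5 (−0.52, SE 0.15) and Foxp2 (−0.70, SE 0.20) did not pass either. The later neuron genes summed there to between 1559 and 1973 CPM (mutants) and between 1844 and 2160 CPM (controls). Of the 14 vascular and microglial markers, 3 were at 0 in the upper-layer sums of each genotype, and their summed level ran from 17.3 to 36.4 CPM over mutants and from 15.3 to 34.5 CPM over controls. In the deep-layer sums it ran from 27.0 to 49.8 and from 14.4 to 32.2 CPM. The 7 meningeal and choroid plexus genes reached 1450 CPM there in mutant 12 and at most 36.4 CPM in controls. In all cells 5 of the 7 were tested, 4 with a positive and 1 with a negative log2 fold change (median 1.53). At an unadjusted edgeR p under 0.05, 3 were higher in mutants, beside 5.03% of all genes, and none passed after adjustment. The 5 erythroid genes summed to 1297 to 2741 CPM (mutants) and 691 to 2852 CPM (controls) in the upper-layer gate, and to 2702 to 3970 CPM against 367 to 2003 CPM in the GABAergic gate. Median UMIs per kept cell were 1388 ± 228 for mutants (SD, n = 4) and 1638 ± 431 for controls (SD, n = 3). The median mitochondrial share per cell was 3.83% ± 0.378 for mutants and 4.84% ± 0.786 for controls in all cells, and its mean was below that of controls in each of the 4 neuron gates, as in migrating neurons (3.80% ± 0.391 against 4.95% ± 0.743). The part of these in the differences of Syt1, Unc13a and Slc17a6 was not tested.

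Whether the genotype difference of a member itself differed between gates was tested by an interaction term with the embryo as block. No member passed (edgeR adjusted p under 0.05, 33 tested), where 0.0273% of all genes passed for upper-layer against GABAergic, 0.0455% for deep-layer against GABAergic and 0.0273% for deep-layer against migrating neurons. At an unadjusted p under 0.05 there were 3, 2 and 3 members in the same order, and 5.36%, 5.66% and 5.07% of all genes. The difference for Syt1 was −0.16 (95% interval −0.50 to 0.17) between upper-layer and GABAergic neurons, −0.02 (−0.37 to 0.33) between deep-layer and GABAergic neurons and −0.10 (−0.45 to 0.25) between deep-layer and migrating neurons. For Unc13a the same 3 values were 0.21, 0.21 and 0.14, and for Slc17a6 they were 0.20, 0.84 (95% interval 0.07 to 1.61, edgeR adjusted p = 0.857) and 0.45. The smallest unadjusted p-values belonged to Syt11 in deep-layer against GABAergic neurons (0.42, SE 0.12, edgeR adjusted p = 0.393) and Syn2 in upper-layer against GABAergic neurons (1.10, SE 0.33, adjusted p = 0.577).

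A further 61 presynaptic genes, listed for comparison, had rows in the tables. No such gene passed for genotype in any grouping (58, 48, 48, 52 and 46 tested in the order all cells, migrating, upper-layer, deep-layer and GABAergic). At an unadjusted p under 0.05 there were 7, 2, 5, 4 and 1, in either direction. These were 12.07%, 4.17%, 10.42%, 7.69% and 2.17% of those tested, beside 10.47%, 7.43%, 9.81%, 7.68% and 6.41% of all genes. Between upper-layer and migrating neurons, 17 of 53 were higher and 9 lower, with a median of 0.12. Of all genes, 13.4% passed as higher and 11.3% as lower there. The largest called differences upwards were those of Doc2a, another Doc2 calcium sensor (1.18, SE 0.31), the Rab effector Rph3a (0.99, SE 0.24), the dynamin Dnm3 (0.96, SE 0.09) and Rims3 (0.90, SE 0.21). Synpr, a vesicle protein of the synaptophysin family, had the largest called difference downwards (−2.15, SE 0.33). Between deep-layer and migrating neurons 28 of the 53 were higher and 4 lower, beside 15.6% and 16.5% of all genes. Between GABAergic and upper-layer neurons 11 were higher and 21 lower, beside 16.1% and 17.5% of all genes.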

How the data were processed

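The authors deposited 1 table of raw UMI counts per library, genes by barcodes, and per the submitters' processing notes reads were aligned with STAR to mm10. Versions, the annotation, how barcodes were kept, and how strand and overlapping or near-identical genes were counted: not given in the sources used here. Thus members that share sequence with a pseudogene or overlap another gene are uncertain as single genes. No row lacked a gene name.

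Barcodes with at least 500 genes and at most 10% mitochondrial UMIs were kept. Each was gated to the marker list with the highest standardised mean log level, given at least 2 distinct markers detected, which covered 20660 cells. No doublet caller was run, and a marker-based filter was an alternative. Genotype is named by the labels. The embryo was the replicate, and genotype p-values measure the spread between embryos of 1 litter. Those of the class and interaction fits measure the spread left between gate sums once each embryo's own level is taken out.

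UMIs were summed per embryo and gate (370269 to 2520071 per sum of the 4 neuron gates) and tested in R 4.3.3 with edgeR 4.0.16 (quasi-likelihood, TMM, filterByExpr, two-sided, Benjamini-Hochberg over all genes tested, threshold 0.05). CPM are scaled within each fit, so the same gate has slightly different CPM in the genotype and the class fits. The scripts were tested on simulated data. Of genes given a 1.5-fold genotype change, 29.6% were recovered in all cells, 29.3% in migrating, 39.2% in upper-layer, 26.3% in deep-layer and 8.33% in GABAergic neurons. For the interaction of upper-layer against GABAergic neurons it was 16.5%. A change of that size can thus be missed. In the class and interaction fits the embryo was a block, since each embryo gave every gate. Alternatives were DESeq2 1.42.0, its size factors, no count filter, 800 or 300 genes, 3 markers, a score lead of 0.5, the doublet filter, leaving out each embryo, 1 genotype alone and no block. Shares of cells were compared by exact permutation. Values per embryo, or their range over the 7 embryos, are given for Syt1, for members with an unadjusted genotype p under 0.05 in at least 3 groupings, and for the 3 largest and 3 smallest upper-layer minus migrating differences. Others are named as examples of their role. Of the 61 further genes, the rule names the 4 largest called rises and 2 largest called falls, of which 1 is not reported here. Members and lists were chosen with earlier results of these data known. Libraries were compared in pairs, and the lowest chi-square per gene was 5.46. Promoter windows were matched by symbol.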

Additional observations from a re-analysis of the deposited data

Results flagged for a closer look

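The members named by rule were searched, in each of the 5 groupings, for an embryo that stood apart from the others of its genotype among the 4 mutants, and chance marks about 1 in 20 such groups. Syt1 in the upper-layer gate was marked because mutant 12 lay at 118 CPM (117.58), while the other mutants lay between 157 and 162 CPM. Without mutant 12 the log2 fold change of Syt1 in that gate was −0.44 (edgeR adjusted p = 0.229), against −0.54 with it. Sv2b in the GABAergic gate was marked because mutant 12 had 3.43 CPM, on 3 UMIs, while Sv2b was at 0 in the other 3 mutants. A count of 0 in those sums allows up to 3 UMIs, so that these mutants were not distinguishable at this depth. With the other 3 mutants at 0, any level above 0 in mutant 12 would have been marked.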

How the results depend on the processing

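No paired analysis was possible for genotype because mutants and controls share no replicate numbers. With no replicate block in place of the embryo block, the class comparisons called 13 (upper-layer minus migrating), 18 (deep-layer minus migrating), 9 (deep-layer minus upper-layer), 15 (GABAergic minus upper-layer) and 29 members (migrating minus radial glia), against 19, 27, 17, 22 and 29. Mutants alone gave 10, 17 and 8 members for the first 3, and controls alone 11 for deep-layer minus upper-layer and 13 for GABAergic minus upper-layer, with fewer embryos. With the comparisons in the same order, all genes called went from 2715, 3531, 2219, 3701 and 6639 to lows of 1254, 1877, 1011, 2222 and 4867 over the 18 alternatives. The setting of each low is not given here. The genotype count of members went from 0 to 1 (Syt1) without a count filter in all cells and in the upper-layer gate and stayed 0 under the other 14 alternatives of each.

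Syt1 had a negative log2 fold change in all 5 groupings under all 15 alternatives, at −0.60 to −0.40 in all cells, −0.46 to −0.08 in migrating, −0.61 to −0.44 in upper-layer, −0.46 to −0.31 in deep-layer and −0.55 to −0.08 in GABAergic neurons. That of Unc13a was positive (0.26 to 0.46, 0.10 to 0.59, 0.33 to 0.59, 0.38 to 0.60 and 0.17 to 0.45 in that order), as was that of Slc17a6 in deep-layer neurons (0.63 to 1.07). Slc17a6 in GABAergic neurons reversed without control 14 (−0.11, range 0.034 to 0.35 without any other embryo). Differences that had not passed the test also reversed. Syt1, deep-layer minus upper-layer (−0.05), was 0.017 with 3 markers, 0.038 in mutants alone and −0.061 to 0.0084 with 1 embryo left out. Sv2b, migrating minus radial glia (−0.51), was 0.13 in mutants alone, −1.44 in controls alone, 0.0062 without control 14 and as low as −0.91 with another embryo left out. Among interactions, Slc17a6 upper-layer against GABAergic (0.20) was −0.13 with 800 genes. Syt1 deep-layer against GABAergic was 0.015 with 3 markers, 0.032 with the score lead and −0.20 to 0.11 with 1 left out, and deep-layer against migrating was −0.31 to 0.029. The cause was not tested. The migrating share difference of 4.22 points was 2.03 (exact permutation p = 0.0571) with 3 markers and 3.13 to 4.95 with 1 left out, where no split can pass, and the GABAergic share difference of 0.922 was −0.522 without mutant 12 and 0.0902 to 2.18 without any other embryo.

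Counts of all genes called for genotype moved from 3 to between 3 and 165 in all cells, 5 to between 2 and 28 in migrating, 3 to between 2 and 100 in upper-layer, 2 to between 1 and 40 in deep-layer and 0 to between 0 and 19 in GABAergic neurons. Depth limits Doc2b, Sv2b, Slc17a7 and Vamp1 most, with fewer than 30 UMIs in some gates.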
